A study of Homo sapiens with 11 samples.

Results

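The 9 genes described here encode receptors of insulin and the insulin-like growth factors (INSR, IGF1R and IGF2R), the docking proteins of the activated receptors (IRS1 and IRS2) and secreted proteins that bind the growth factors (IGFBP3, IGFBP4, IGFBP6 and IGFBP7). They were chosen by symbol from a table of 28152 gene symbols, and all 9 passed the filter on low counts, with 230 or more counts in every library. The samples were xenograft tumours of a human breast cancer line, given as BT-474 and as positive for hormone receptors and HER2, grown in the mammary fat pad of female athymic nude mice. All mice, controls included, had an estradiol implant (0.72 mg, 90 days), were injected with the cells 3 days after it, and could enter once a tumour was over 95 cubic millimetres. One group of 6 tumours came from mice given 5% mannitol in water as vehicle. The other group of 5 came from mice given evexomostat (SDX-7320), an inhibitor of methionine aminopeptidase 2, at 12 mpk. Both agents were injected under the skin every 4 days, the label gives day 33 for every library, and the study compared gene expression between the groups. Titles number the tumours within each group, and nothing in the labels names the animals, so the p-values measure the spread between these samples.

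Insulin and the growth factors IGF1 and IGF2 act through the tyrosine kinase receptors INSR and IGF1R, which phosphorylate IRS1 and IRS2 and so recruit PI3-kinase. IGF2R is not a kinase: it takes IGF2 to lysosomes and carries mannose 6-phosphate tagged enzymes. Binding proteins hold the growth factors in the extracellular space and set how much reaches the receptors, and proteases such as PAPPA cut some of them to release the ligand. In breast epithelium the IGF1 receptor is known as a partner of the estrogen receptor.

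Libraries held 22808033 to 39249329 counts. Levels below are CPM, counts scaled to library size with TMM factors, which correct for a few very abundant genes. Vehicle 001 stood apart. Its log2 level had a slope of -0.21 for each doubling of a transcript, while slopes ran from 0.02 to 0.06 elsewhere under vehicle and from -0.05 to 0.04 under evexomostat. Its slope for each 10 points of GC content was -0.29, against -0.016 to 0.093 in the other libraries. The longest annotated transcripts of the receptors and substrates run from 8138 bases in IRS2 to 14044 in IGF2R, so results are also given without that library. Of 11 markers of the labelled line, 5 averaged under 1 RPM (reads scaled to the library total). These were ESR1 at 0.285, PGR at 0.0655, GRB7 at 0.303, KRT19 at 0.803 and CDH1 at 0.456. FOXA1 averaged 1.05, EPCAM 3.03, GATA3 6.50, ERBB2, which encodes HER2, 53.7, KRT18 148.6 and KRT8 331.6 RPM. The low ESR1, PGR, GRB7, KRT19 and CDH1 go against the label, and FOXA1, EPCAM and GATA3 were low as well, while KRT8 and KRT18 were high. ERBB2 ran from 23.0 to 65.3 RPM, and its mean lay below those of KRT5 and CDH2. This level is therefore not taken as a sign that the HER2 label holds. The identity of the line was not tested. Of the mesenchymal or basal markers, VIM averaged 1187 RPM, CD44 832.3, KRT5 75.7, CDH2 66.9, ZEB1 28.6 and KRT14 6.18. In the lists of fibroblast, endothelial, adipocyte, skeletal muscle and leukocyte markers, 10, 7, 7, 7 and 8 genes were tested. Of these, 0 passed an adjusted p of 0.05 in edgeR, where 0.606% of all tested genes did, so this count does not show that cell content was unchanged. The summed level of fibroblast markers, of which COL3A1 was the most abundant, was 437.3 to 2123 RPM under vehicle and 550.8 to 1189 under evexomostat. For endothelial markers it was 19.8 to 37.3 and 32.8 to 41.0. Adipocyte markers summed to 40.0 to 63.0 and 41.0 to 56.1 RPM, leukocyte markers to 73.8 to 123.5 and 91.5 to 113.0, and skeletal muscle markers to 2.87 to 24.6 and 4.46 to 526.3. ADIPOQ had 0 counts in every library, and CDH5 and AIF1 at most 2.

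None of the 9 genes passed an adjusted p of 0.05 in edgeR's quasi-likelihood test, in which 0.606% of all 16653 tested genes did (0.432% with lower levels under evexomostat). Before adjustment, 4 had p under 0.05: IGFBP3, IRS2, IGF2R and IGFBP7, all with lower fitted levels under evexomostat, against 13.4% of all tested genes. Fitted fold changes were below 0 on the log2 scale in 8 of 9 genes, where 55.4% of all tested genes were. The median over the 9 was -0.43, against -0.04 over all tested genes. In 0 of 9 genes did the groups fail to overlap, against 2.97% of all tested genes. Without vehicle 001, IGF2R passed with a lower level, as did 5.22% of 16565 tested genes (3.24% lower). It also passed with quality weights in limma-voom (6.36% of tested genes, 4.05% lower) and in the 8 libraries whose replicate number occurs in both groups (4.42%, 3.06% lower). Of the 9, 0 passed with those numbers as a block (0.645%, 0.5% lower) or in DESeq2 (2.71% of 24325 genes, without the count filter, 1.87% lower). The authors' deposited table holds none of the 9 at an adjusted p under 0.05, against 0.952% of its genes. In bulk tumour RNA, fewer cells of a type and less RNA per cell cannot be told apart.

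**Figure D1:**
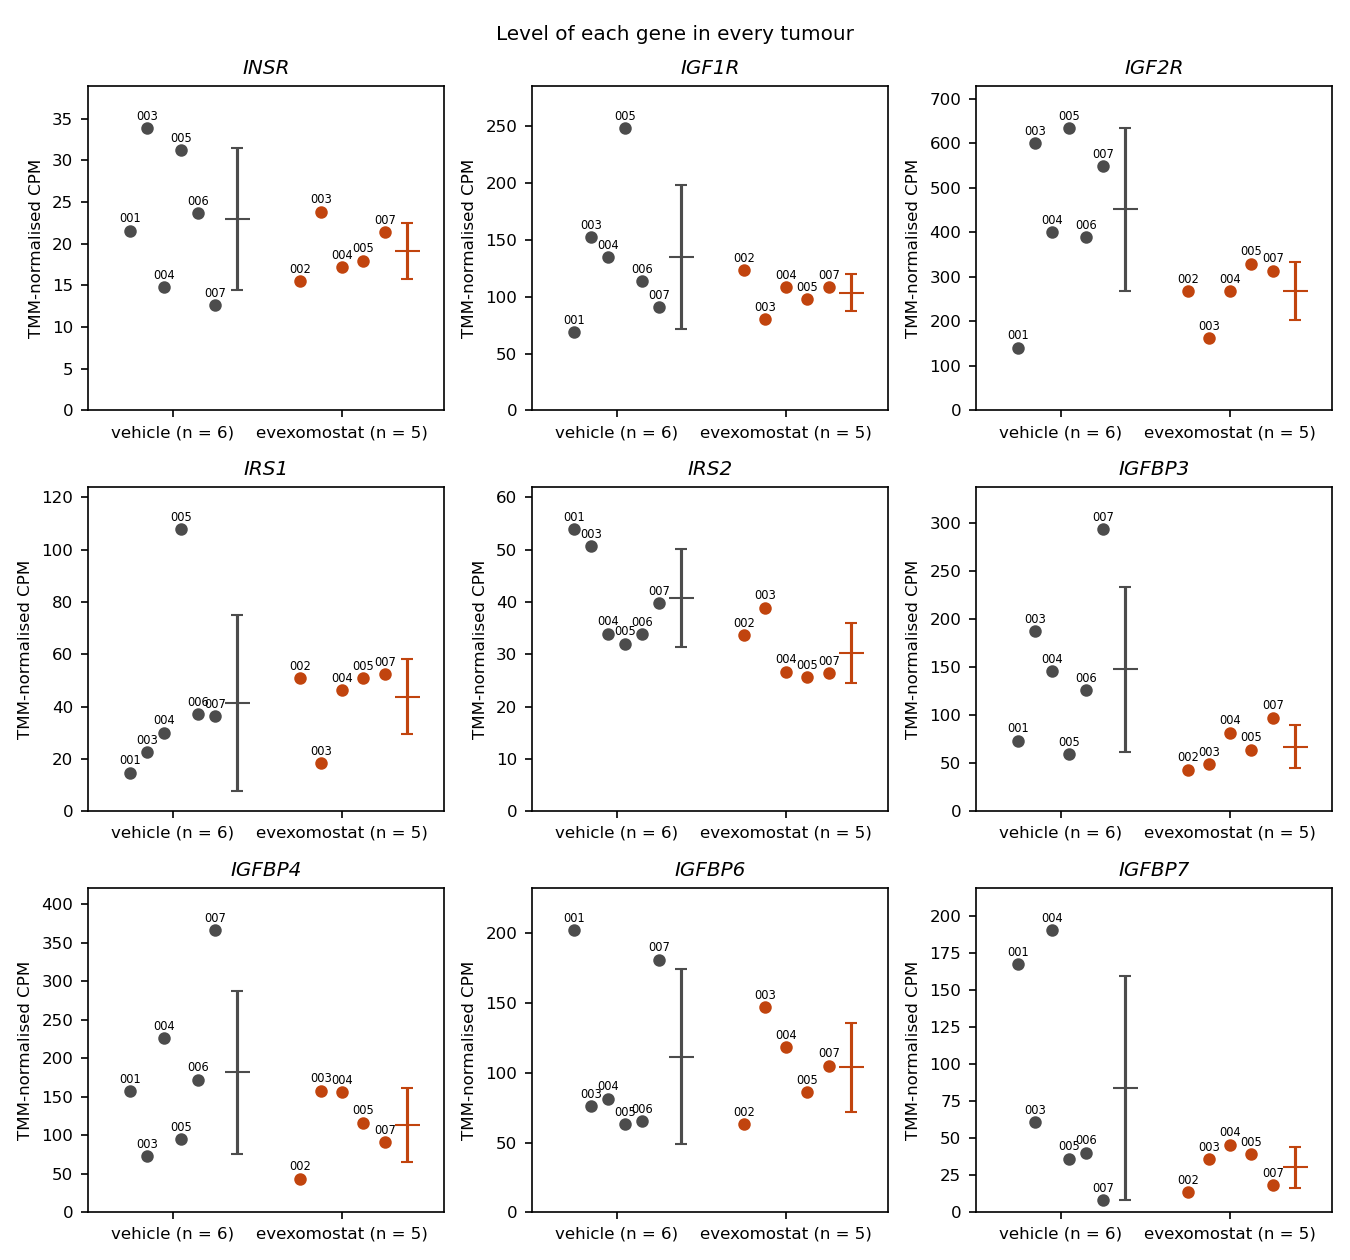
TMM-normalised CPM of each gene (vertical axis, linear from 0) in the 6 vehicle and 5 evexomostat tumours. Each point is 1 tumour with its replicate number, and the bars are the mean and SD. The groups overlap in all 9 panels, and in IGF2R only vehicle 001, at 140.6 CPM, lies below the highest evexomostat tumour.

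Promoters are shown for 3 of the 4 genes with an unadjusted p under 0.05 in edgeR, a choice made from these same data. Fitted fold changes lay below 0 in 8 of the 9 genes, so that side does not set these 3 apart. RefSeq (GRCh38.p14) held windows for 8 of the 9 genes, and none for IGFBP7. Each line gives the 250 bases before the annotated start, 5′ to 3′ on the gene's strand. Capitals mark GC boxes (GGGCGG or its complement CCGCCC, bound by Sp1-type factors) and E-boxes (CACGTG, the same on both strands, bound by MYC and USF type factors).
IGF2R, chr6:159968832-159969081, plus strand: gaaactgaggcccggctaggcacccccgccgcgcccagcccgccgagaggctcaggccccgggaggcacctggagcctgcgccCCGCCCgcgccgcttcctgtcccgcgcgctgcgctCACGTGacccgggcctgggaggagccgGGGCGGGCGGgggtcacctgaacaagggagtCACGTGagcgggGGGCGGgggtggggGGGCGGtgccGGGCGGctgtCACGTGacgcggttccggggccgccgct
IRS2, chr13:109786584-109786833, minus strand: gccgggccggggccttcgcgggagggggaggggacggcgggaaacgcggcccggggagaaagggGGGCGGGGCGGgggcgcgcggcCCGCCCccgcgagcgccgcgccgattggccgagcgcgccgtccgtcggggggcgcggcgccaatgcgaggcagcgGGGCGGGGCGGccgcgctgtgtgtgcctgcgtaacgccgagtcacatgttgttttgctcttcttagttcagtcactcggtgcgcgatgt
IGFBP3, chr7:45921273-45921522, minus strand: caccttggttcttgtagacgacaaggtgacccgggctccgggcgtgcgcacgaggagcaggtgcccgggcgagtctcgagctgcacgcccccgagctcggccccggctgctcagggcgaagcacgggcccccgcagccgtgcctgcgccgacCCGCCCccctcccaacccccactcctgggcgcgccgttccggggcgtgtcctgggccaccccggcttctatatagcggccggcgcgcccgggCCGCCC
All 3 windows were rich in G and C, at 79.2% in IGF2R, 76.4% in IRS2 and 76.0% in IGFBP3. GC boxes occurred 6, 5 and 2 times, and 42.6% of all 35116 windows of this length held at least 1. The windows not shown, of INSR, IGF1R, IRS1, IGFBP4 and IGFBP6, also held GC boxes (4, 2, 4, 1 and 1). Their GC content was 78.4%, 81.2%, 80.8%, 71.6% and 61.2%, so neither trait is particular to the windows shown. E-boxes occurred 3 times in IGF2R and 0 times in the other 7 windows, against 6.34% of all windows with a match. The core ACGTG of hypoxia response elements, searched on both strands, matched 6 times in IGF2R. Every E-box CACGTG holds this core on both strands, so these 6 matches are the 3 E-boxes counted again. The core matched once in IGF1R, in none of the other 6 windows, and in 18.5% of all windows. The forkhead motif TGTTTAC was absent from these 3 windows on both strands, and 2.98% of all windows held it. These matches describe letters in a window and no binding was measured here.

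INSR, the insulin receptor, was the least abundant of the 9 per length. In vehicle tumours 001, 003, 004, 005, 006 and 007 it stood at 21.6, 33.8, 14.8, 31.2, 23.6 and 12.6 CPM (the lowest 12.6, the median 22.6, the highest 33.8). In evexomostat tumours 002, 003, 004, 005 and 007 it stood at 15.5, 23.8, 17.2, 17.9 and 21.4 CPM. The evexomostat tumours lay wholly inside the vehicle range, with 4 of 5 below the vehicle median. Means were 22.9 ± 8.50 CPM (SD, n = 6) and 19.2 ± 3.36 (SD, n = 5), and the fitted log2 change was -0.26 (95% interval -0.79 to 0.27, adjusted p 0.719 in edgeR). Without vehicle 001 the log2 fold change was -0.27 (adjusted p 0.550 in edgeR). Counts per gene do not separate the receptor's splice forms.

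IGF1R, the main receptor of IGF1, was lowest in vehicle 001 at 68.8 CPM and highest in vehicle 005 at 248.0, with a vehicle median of 124.2. Evexomostat tumours 002, 003, 004, 005 and 007 were at 123.2, 80.2, 108.6, 97.7 and 108.6 CPM. All 5 lay below the vehicle median and inside the vehicle range. The group means of 134.8 ± 63.1 (SD, n = 6) and 103.7 ± 16.0 (SD, n = 5) gave a log2 fold change of -0.38 (SE 0.27 and adjusted p 0.610 in edgeR). Without vehicle 001 it was -0.51 (adjusted p 0.199 in edgeR), and without vehicle 005 it was -0.11 (adjusted p 0.880 in edgeR).

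IGF2R, the scavenger of IGF2, had 2901 to 23540 counts per library. Vehicle tumours 001, 003, 004, 005, 006 and 007 held 140.6, 600.4, 400.3, 633.7, 389.3 and 548.9 CPM (median 474.6). The evexomostat tumours 002, 003, 004, 005 and 007 held 267.4, 162.9, 267.5, 329.9 and 314.2 CPM. There 5 vehicle tumours were above every evexomostat tumour, and vehicle 001 was below them all. Means were 452.2 ± 183.3 CPM (SD, n = 6) and 268.4 ± 65.2 (SD, n = 5). The log2 fold change was -0.75 (95% interval -1.44 to -0.07), with an unadjusted p of 0.0335 and an edgeR adjusted p of 0.318.

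The call on IGF2R changed with the libraries and the fit. Without vehicle 001 the vehicle mean was 514.5 CPM, the log2 fold change was -0.93, and the edgeR adjusted p was 0.0253. Among those 10 libraries the groups did not overlap, which held for 8.33% of tested genes, 4.35% with lower levels under evexomostat. Down-weighting of outlying libraries in limma-voom also put IGF2R past the threshold (log2 fold change -0.75, adjusted p 0.0339), where 6.36% of all tested genes passed. In the 8 libraries with shared replicate numbers, which lack vehicle 001, the log2 fold change was -1.03 (adjusted p 0.0356 in edgeR), and with the numbers as a block it was -1.05 and did not pass (adjusted p 0.0819). After removal of each library's length and GC trend, with all 11 libraries kept, the log2 fold change was -0.64 and the adjusted p was 0.260.

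IRS1, a docking protein used by both kinases, had a vehicle range that 1 tumour set. Vehicle 005 was at 107.8 CPM, and the other vehicle tumours 001, 003, 004, 006 and 007 were at 14.8, 22.8, 30.1, 37.2 and 36.3. Evexomostat 003 was at 18.5 CPM, and 002, 004, 005 and 007 were at 50.8, 46.2, 51.0 and 52.5. Those 4 evexomostat tumours were thus above 5 of the 6 vehicle tumours, and the fifth was below 5 of them. The means of 41.5 ± 33.6 (SD, n = 6) and 43.8 ± 14.3 (SD, n = 5) gave a log2 fold change of 0.08 (SE 0.43 and adjusted p 0.967 in edgeR). The 95% interval, -0.86 to 1.01, covers changes of nearly 2-fold in both directions. Without vehicle 005 the log2 fold change was 0.64 (adjusted p 0.405 in edgeR), and without vehicle 001 it was -0.09.

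IRS2, the second main docking protein, had the smallest coefficient of variation of the 9 under vehicle, 23.0%. Under evexomostat it was 19.2%, above those of IGF1R (15.4%) and INSR (17.5%). Vehicle tumours 001, 003, 004, 005, 006 and 007 were at 53.9, 50.7, 34.0, 32.1, 33.9 and 39.8 CPM. Evexomostat tumours 002, 003, 004, 005 and 007 were at 33.6, 38.9, 26.7, 25.6 and 26.4 CPM. Here 3 evexomostat tumours lay below all vehicle tumours, and 002 and 003 lay inside the vehicle range. Means of 40.7 ± 9.38 (SD, n = 6) and 30.3 ± 5.80 (SD, n = 5) gave a log2 fold change of -0.43 (SE 0.18), with an unadjusted p of 0.0301 and an edgeR adjusted p of 0.305. Without vehicle 001, here the highest library, the log2 fold change was -0.33 (adjusted p 0.226 in edgeR).

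Ratios of paired genes within a tumour do not depend on how libraries are scaled, and 2 were compared. The log2 ratio of INSR to IGF1R was -2.52 ± 0.58 (SD, n = 6) in vehicle tumours and -2.44 ± 0.46 (SD, n = 5) in treated ones, with an exact two-sided permutation p of 0.777 (adjusted 0.777). INSR counts were thus well below those of IGF1R in every tumour, at 0.110 to 0.314 of them under vehicle and 0.126 to 0.297 under evexomostat. The log2 ratio of IRS2 to IRS1 averaged 0.24 ± 1.23 (SD, n = 6) and -0.46 ± 0.87 (SD, n = 5), a difference of -0.70 with an exact two-sided permutation p of 0.310 (adjusted 0.619). Vehicle tumours ran from 0.298 IRS2 counts per IRS1 count in 005 to 3.63 in 001. Evexomostat 003 stood at 2.10 and the other 4 between 0.503 and 0.662. The smallest p that the 462 splits allow is 0.00216.

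IGFBP3, the main carrier of the growth factors in blood, had the smallest p of the 9. Vehicle tumours 001, 003, 004, 005, 006 and 007 were at 73.6, 187.8, 146.0, 59.5, 126.5 and 293.8 CPM. Evexomostat tumours 002, 003, 004, 005 and 007 were at 43.5, 49.4, 82.0, 64.3 and 97.8 CPM. Of these, 4 vehicle tumours lay above all evexomostat tumours, and vehicle 001 and 005 lay among them. Means were 147.9 ± 85.7 (SD, n = 6) and 67.4 ± 22.6 (SD, n = 5). The fitted fold was 0.456 (95% interval 0.261 to 0.795, log2 fold change -1.13), with an unadjusted p of 0.00926 and an edgeR adjusted p of 0.201. Left out singly, libraries moved its adjusted p between 0.0579 and 0.370, the lowest without vehicle 001. DESeq2, on the same counts, gave an adjusted p of 0.0599.

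IGFBP4, which PAPPA cleaves, was highest in vehicle 007 at 366.1 CPM and lowest among vehicle tumours in 003 at 73.3, with a median of 164.9. The evexomostat tumours 002, 003, 004, 005 and 007 were at 43.8, 157.9, 156.3, 116.6 and 91.4 CPM. All 5 were below the vehicle median, and 4 of them lay inside the vehicle range. The log2 fold change was -0.68 (95% interval -1.55 to 0.19, adjusted p 0.506 in edgeR). Vehicle 007 carried part of this, since without it the log2 fold change was -0.36. Without vehicle 001 the log2 fold change was -0.71 (adjusted p 0.330 in edgeR).

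IGFBP6, which prefers IGF2 to IGF1, showed no separation by treatment. Vehicle 001 and 007 were at 201.8 and 180.8 CPM, the other 4 vehicle tumours between 63.0 and 81.4, and the evexomostat tumours between 62.9 and 146.7. Of the evexomostat tumours, 1 lay just below the lowest vehicle tumour and the other 4 between the parts of the vehicle group, above the vehicle median of 78.7. Means were 111.4 ± 62.6 (SD, n = 6) and 103.8 ± 31.8 (SD, n = 5). The log2 fold change was -0.10 (95% interval -0.83 to 0.63, adjusted p 0.940 in edgeR), and it changed sign under other settings, to 0.16 without vehicle 001.

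IGFBP7, which binds insulin and the growth factors weakly and is known from vessel walls, varied most. Vehicle tumours 001, 003, 004, 005, 006 and 007 were at 167.6, 60.9, 190.6, 36.3, 40.4 and 8.45 CPM, a 22.5-fold range. Evexomostat tumours 002, 003, 004, 005 and 007 were at 13.7, 35.8, 45.7, 39.6 and 18.4 CPM. Of these, 3 vehicle tumours lay above all evexomostat tumours and vehicle 007 lay below them all. Means of 84.0 ± 75.8 (SD, n = 6) and 30.6 ± 13.9 (SD, n = 5) gave a log2 fold change of -1.46 (SE 0.63), with an unadjusted p of 0.0381 and an edgeR adjusted p of 0.332. The log2 fold change was -0.96 in limma-voom, -0.85 in limma-trend on log2(RPM + 1) and -0.41 with the replicate block on 8 libraries (adjusted p 0.656 in edgeR). Without vehicle 001 it was -1.14 (unadjusted p 0.0942, adjusted p 0.287 in edgeR). Without vehicle 004 it was -1.03 (unadjusted p 0.111, adjusted p 0.545 in edgeR).

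Some measured values lie beside the result on IGFBP7. The fibroblast marker sums of vehicle 001, 003, 004, 005, 006 and 007 were 715.1, 437.3, 2123, 446.6, 1439 and 664.8 RPM. Those of evexomostat 002, 003, 004, 005 and 007 were 550.8, 787.7, 942.3, 1189 and 551.2 RPM. COL3A1 was the most abundant marker in this sum, at 182.8 to 1757 RPM, and COL1A1 averaged 167.4. DCN, LUM and PDGFRA averaged 0.390, 1.05 and 1.45 RPM, so the sum mostly follows the collagen genes. Vehicle 004 was highest for both the sum and IGFBP7, while vehicle 006, second in the sum, had only 40.4 CPM of IGFBP7, and vehicle 003, lowest in the sum, had 60.9. In GENCODE 29, 270 of the gene's 1930 exon bases are shared with POLR2B on the opposite strand, which had 2978 to 13532 counts per library. Whether reads were counted by strand is not given in the sources used here, and the part of any of these in the result was not tested.

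**Figure D2:**
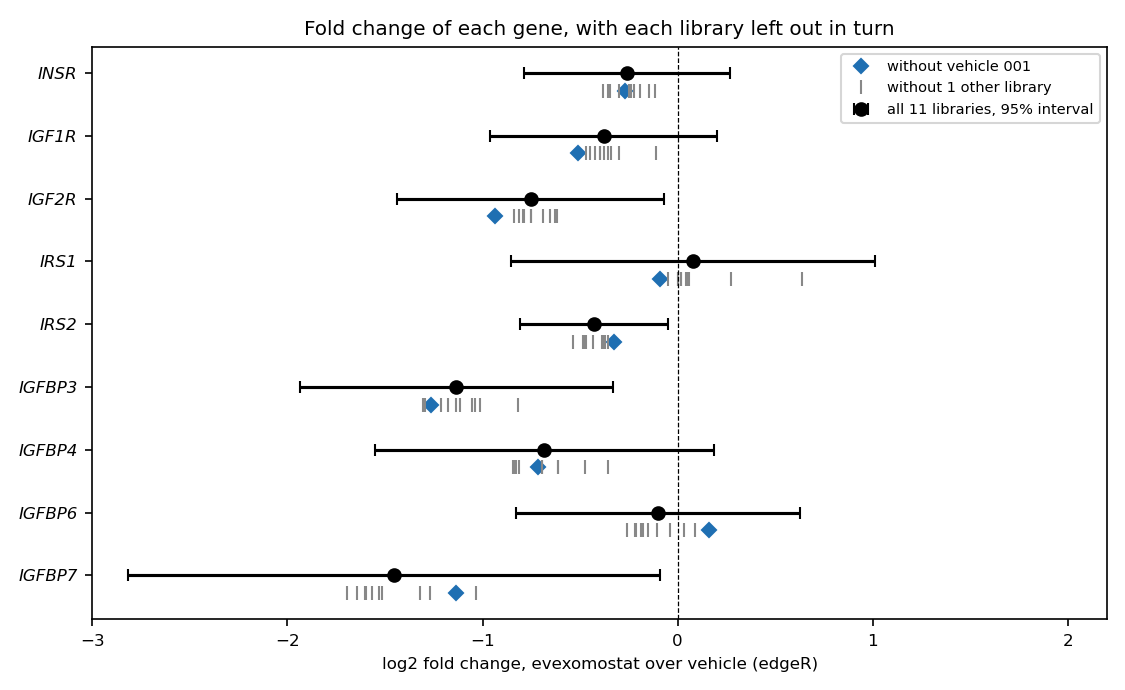
Log2 fold change of each gene, evexomostat over vehicle, in edgeR. Black points and bars are all 11 libraries with the 95% interval, grey ticks leave out 1 library each, and blue diamonds leave out vehicle 001. The interval excludes 0 in the 4 genes with an unadjusted p under 0.05, and no estimate on these 4 genes changes sign when a library is left out.

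The spread between tumours was wider under vehicle in all 9 genes, as it was in 80.8% of all tested genes. Without vehicle 001 this held for 8 of 9 genes and for 62.9% of all tested genes. The highest of the 11 libraries was a vehicle tumour for every one of the 9 genes. Vehicle tumours made up 6 of the 11 libraries, and the share of all tested genes with a vehicle maximum was not counted. Vehicle 005 was highest for IGF1R, IGF2R and IRS1, vehicle 001 for IRS2 and IGFBP6, and vehicle 007 for IGFBP3 and IGFBP4. Vehicle 001 was also lowest for IGF1R, IGF2R and IRS1. Evexomostat 002 was lowest for IGFBP3, IGFBP4 and IGFBP6.

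Divided by exon length, vehicle means were highest for the binding proteins and lowest for the substrates and INSR. Vehicle means were 82.7 CPM per kilobase for IGFBP6, 82.6 for IGFBP4, 43.5 for IGFBP7, 32.3 for IGFBP3, 25.3 for IGF2R, 9.67 for IGF1R, 5.00 for IRS2, 4.17 for IRS1 and 2.19 for INSR. In vehicle tumours the ranges of every pair of neighbours in this order overlapped. Under evexomostat the order differed, with IGF2R just above IGFBP3 and IRS1 above IRS2. Means ran from 77.1 for IGFBP6, 51.5 for IGFBP4 and 15.9 for IGFBP7, through 15.04 for IGF2R, 14.7 for IGFBP3 and 7.44 for IGF1R, to 4.40 for IRS1, 3.72 for IRS2 and 1.83 for INSR. There IGFBP3 was above IGF1R, IGF1R above IRS1 and IRS2 above INSR with no overlap between tumours, and the other neighbours overlapped. Exon length came from GENCODE 29, which may differ from the annotation used for counting.

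**Figure D3:**
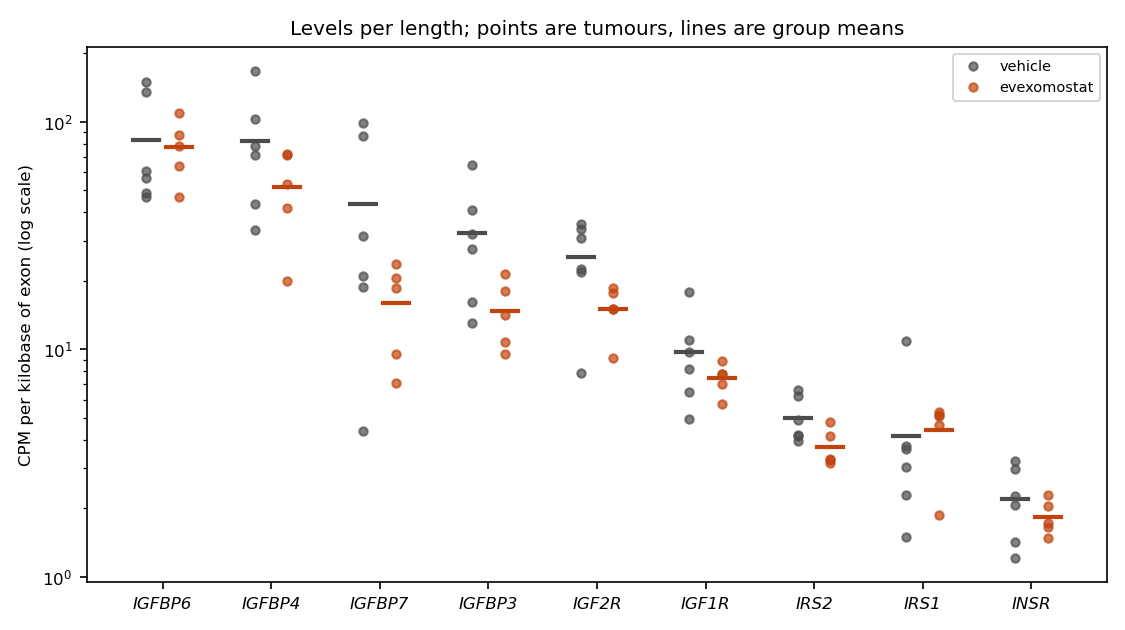
CPM per kilobase of exon on a log axis for the 9 genes, ordered by their mean over all tumours. Points are tumours and lines are group means, from 82.7 for IGFBP6 down to 2.19 for INSR under vehicle.

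The genes whose profile over the 11 libraries was closest to each of the 9 are given as a description, by Pearson's r of log2 CPM over 13067 other genes. For IGF2R they were MYH10 (r = 0.977, and 0.966 without vehicle 001) and CRTAP (r = 0.972 and 0.958). For IRS1 they were GMPPB (r = 0.966 and 0.963) and SH3BP4 (r = 0.926 and 0.903). SEC24D (r = 0.90 with and without that library) and STAM2 (r = 0.901 and 0.934) were closest to IGFBP3, and KRT17 (r = 0.933 and 0.913) and NAAA (r = 0.912 and 0.879) to IGFBP7. The closest were ETNK2 and PPARGC1A for INSR, WDR48 and KBTBD2 for IGF1R, and ITSN2 and ZNF292 for IRS2. They were APOL1 and SCPEP1 for IGFBP4 and PLAAT4 and CSAG4 for IGFBP6, all between r = 0.874 and 0.956. The libraries behind these values share their depth and, in vehicle 001, the trends with transcript length and GC content. A high r is also expected from taking the highest of 13067 genes over 11 libraries, so these pairs are not read as co-expression. Spearman's rho of the named pairs ran from 0.727 for SEC24D with IGFBP3 to 0.964, as for KRT17 with IGFBP7. Genes with near-identical copies, such as KRT17 and CSAG4, may have been counted in part with them.

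Human transcripts of the ligands were near the limit of detection. INS had 0 counts in all 11 libraries, IGF2 had 0 to 4 and IGF1 0 to 17, and 3 counts correspond to 0.0764 to 0.132 RPM, counting error only. None passed the count filter, so none was compared. The counts cover human gene symbols, and the handling of mouse reads is not given in the sources used here.

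Of 63 other genes of the pathway, 55 were tested, and 0 passed an adjusted p of 0.05 in edgeR, against 0.606% of all tested genes. Before adjustment, 8 had p under 0.05, 2 with higher and 6 with lower fitted levels under evexomostat (4.82% and 8.55% of all tested genes). The median log2 fold change was -0.12, and -0.04 over all tested genes. Without vehicle 001, 4 of them passed, PAPPA, STC1, PCSK1 and SOCS3, all lower, where 5.22% of all tested genes passed and 3.24% were lower. With all libraries kept, the groups did not overlap in 0 of the 55, against 2.97% of all tested genes.

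The proteases that cut binding proteins, with their inhibitors, were measured for 7 of 8 genes. Of the 7 fold changes, 6 were below 0, against 55.4% of all tested genes. PAPPA, the metalloprotease that cleaves IGFBP4, stood at 39.0 ± 9.51 CPM (SD, n = 6) and 18.7 ± 5.99 (SD, n = 5). The ranges, 23.5 to 51.3 and 9.78 to 24.3, overlapped, and the log2 fold change was -1.06 (SE 0.24 and adjusted p 0.0707 in edgeR). STC1, stanniocalcin 1, an inhibitor of PAPPA, was at 108.4 ± 79.5 and 18.4 ± 17.5 CPM, a log2 fold change of -2.56 (SE 0.66 and adjusted p 0.101 in edgeR). Its ranges were 36.1 to 233.3 and 5.02 to 47.6. The STC1 log2 fold change was -3.29 without evexomostat 002 (adjusted p 0.0835 in edgeR), -3.60 with the replicate block on 8 libraries (adjusted p 0.0282) and -3.66 in those libraries with no block (adjusted p 0.0150). It was -2.18 without vehicle 007 (adjusted p 0.172 in edgeR) and -2.32 without evexomostat 003 (adjusted p 0.185). Without vehicle 001 the edgeR adjusted p-values were 0.0146 for PAPPA and 0.0351 for STC1. With other single libraries left out they rose to as much as 0.218 for PAPPA and 0.241 for STC1. PAPPA kept its direction and stayed short of the threshold in 18 of 22 alternatives, and STC1 in 17. The authors' deposited table gives adjusted p-values of 0.0359 for PAPPA and 0.00215 for STC1. HTRA3, a secreted serine protease that was chosen after its value was seen, had an unadjusted p of 0.0112 in edgeR (adjusted p 0.213).

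Other roles held single genes with an unadjusted p under 0.05. Of 4 tested genes of hormone processing and degradation, PCSK1, a prohormone convertase, had a log2 fold change of -0.92 (SE 0.28 and adjusted p 0.170 in edgeR). Of 11 adaptors and further substrates, 10 had fold changes below 0, against 55.4% of all tested genes. Their median log2 fold change was -0.19, and 0 passed the adjusted threshold. NCK1, an SH2 and SH3 adaptor, had -0.30 (adjusted p 0.321 in edgeR). Among 16 negative regulators SOCS3, which targets receptor signalling and IRS proteins, had -0.38 (adjusted p 0.365 in edgeR), or -0.49 without vehicle 001 (adjusted p 0.0274).

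Of the IGF2 mRNA-binding proteins and regulators of receptor genes, 5 of 5 were tested and 3 had fold changes above 0. None passed the adjusted threshold, and 2 had an unadjusted p under 0.05. IGF2BP2, which binds IGF2 mRNA among others, was at 18.2 ± 6.03 CPM (SD, n = 6) and 30.7 ± 9.58 (SD, n = 5), and the fitted log2 change was 0.76 (SE 0.25 and adjusted p 0.209 in edgeR). HMGA1, a chromatin protein that acts on the INSR gene, was at 203.5 ± 48.9 and 319.5 ± 103.8 CPM, a log2 fold change of 0.65 (SE 0.22 and adjusted p 0.220 in edgeR). Neither passed without vehicle 001. The other receptor and binding proteins (5 tested), the positive adaptors (5 tested) and the cell-surface partners of binding proteins (2 tested) held 0 genes with an unadjusted p under 0.05.

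**Figure D4:**
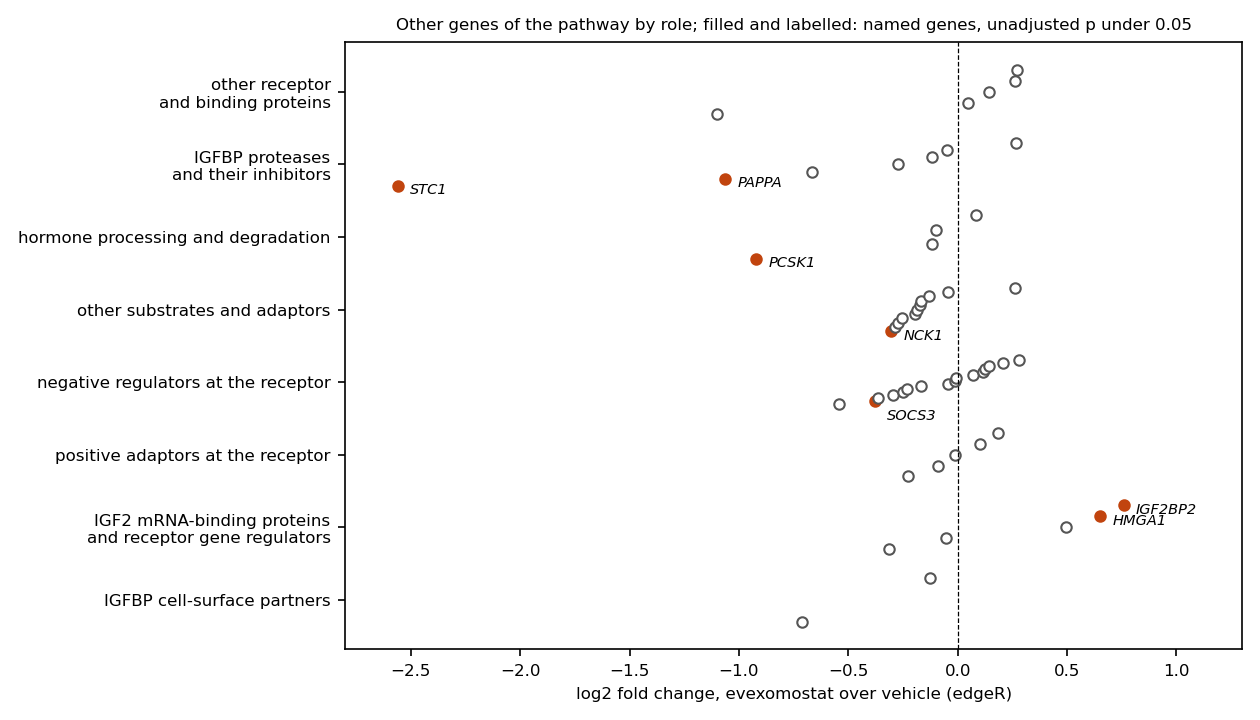
Log2 fold change, evexomostat over vehicle in edgeR, of the 55 tested pathway genes by role. Each point is 1 gene, and filled points are the named genes with an unadjusted p under 0.05, from -2.56 for STC1 to 0.76 for IGF2BP2.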

How the data were processed

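RNA from 11 tumours was sequenced as paired-end reads, per the labels' protocols. The submitters' processing notes name bcl2fastq 2.17, STAR 2.7.5c, featureCounts, Subread, edgeR, GRCh37 and hg19, without roles. The deposited count table holds whole-number reads per gene symbol. The authors' RPM table divides each count by its library total (largest difference 2.3e-13 on recomputing). The authors' deposited comparison table gives log2 fold changes, log2 CPM, p-values and mean RPM, with settings not given in the sources used here.

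Groups came from titles and columns were matched by the code in the sample description. filterByExpr (minimum count 10, total 15) kept 16653 symbols. edgeR 4.0.16 (R 4.3.3) fitted TMM-scaled counts without covariates, with Benjamini-Hochberg adjustment over all tested genes and intervals from the F statistic and its degrees of freedom. limma 3.58.1 and DESeq2 1.42.0 served as alternatives. Ratios used a prior count of 0.5, and log2 CPM a prior count of 2. No per-sample column was left unused. The fits and the permutation test were tested on simulated data.

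The genes and lists were chosen with earlier results of these data known. Named genes were the 9, the ligands, pathway genes past the threshold, up to 2 per role with the smallest unadjusted p under 0.05, and the 2 closest profiles (mean log2 CPM at least 1).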

Additional observations from a re-analysis of the deposited data

Results flagged for a closer look

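In a group of 5 or 6 tumours, the highest or lowest library was marked when its gap to the next exceeded a set share of the range. Of 72 group ends examined over 16 genes and 2 ratios, 4 were marked, where chance marks about 1 in 20 groups, or 1.8 here. The genes share their libraries and the marks are not independent, so 4 against 1.8 is not read as an excess. IRS1 was at 107.8 CPM in vehicle 005, against 14.8 to 37.2 in the other vehicle tumours. In evexomostat 003 IRS1 was at 18.5 CPM, against 46.2 to 52.5 in the other evexomostat tumours. The log2 ratio of IRS2 to IRS1 was 1.07 in evexomostat 003, against -0.99 to -0.60 in the others, and shares the IRS1 value. PCSK1 was at 26.1 CPM in vehicle 006, against 8.05 to 14.4.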

How the results depend on the processing

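For each change given here the cause was not tested. INSR, IGF1R, IRS2, IGFBP3, IGFBP4 and IGFBP7 kept their direction and stayed short of the threshold in all 22 alternatives. IGF2R kept its direction in all 22 and passed with quality weights (-0.75, adjusted p 0.0339), in 8 libraries without a block (-1.03, 0.0356) and without vehicle 001. Single libraries left out moved it from -0.93 to -0.62, IRS1 from -0.09 to 0.64, IGFBP6 from -0.26 to 0.16, and the INSR to IGF1R ratio from -0.09 to 0.26. IRS1 changed sign without vehicle 001 (-0.0925), 003 (-0.0485) or 004 (-0.00067), with the replicate block (-0.0597) and in its 8 libraries with no block (-0.23). IGFBP6 changed sign with limma-voom (0.0117), quality weights (0.29) and limma-trend on log2 RPM with pseudocounts of 1 and 0.1 (0.109 and 0.110). It also did so with the block (0.29), no block (0.18), and without vehicle 001 (0.16) or 007 (0.0914) or evexomostat 002 (0.0338). The INSR to IGF1R ratio changed sign without vehicle 004 (-0.0477), vehicle 005 (-0.00854) or evexomostat 003 (-0.0863). The ratio of IRS2 to IRS1 kept its direction in all 14 of its alternatives, from -1.10 without vehicle 005 to -0.37 without vehicle 001 and -0.35 with the replicate block.

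The count of the 9 past the threshold was 1 with quality weights, in the 8 libraries with no block (4.42% of all tested genes) and without vehicle 001, and 0 otherwise. Leaving out libraries gave 0 to 1 of the 9 and 0 to 4 of the 55, the highest without vehicle 001, where 5.22% of all tested genes passed. The 55 gave 3 in DESeq2 (PAPPA, STC1 and PCSK1), 6 with quality weights (these 3, SOCS3, IGF2BP2 and HTRA3), 5 in the 8 libraries with no block (PAPPA, STC1, SOCS3, HTRA3 and SH2B3) and 1 with the block (STC1). The shares of all tested genes past the threshold in these fits were 2.71%, 6.36%, 4.42% and 0.645%, in that order. Replicate numbers 003, 004, 005 and 007 occur in both groups, and same-numbered tumours correlated at -0.27, 0.07, 0.05 and -0.10, so the replicate block pairs numbers, not tumours. Over all tested genes the threshold was passed by 107 with the block and 733 without it in the same libraries. It was passed by 1059 with quality weights, against 101 in the main fit, both of 16653 genes. DESeq2, run without the count filter, passed 660 of 24325. In edgeR the threshold was passed by 865 without vehicle 001, by 52, 46 and 56 without vehicle 003, 004 or 007, and by 2, 46, 28, 1 and 3 without evexomostat 002, 003, 004, 005 or 007. The median of all genes was -0.04 in the main fit, and 0.08 and 0.10 in limma-trend on log2 RPM with pseudocounts of 1 and 0.1. Those limma-trend fits also leave out the TMM factors and the edgeR model, so the pseudocount is not the only change. At these depths the 9 genes had 230 or more counts, so the spread between tumours, not counting, set their intervals, while the ligands could not be compared.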

Other observations

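Binding proteins outside the 9, chosen here after their values were seen, also differed widely between tumours. IGFBP2, a carrier abundant in fetal and tumour tissue, ran from 16.4 to 298.3 CPM under vehicle and 23.7 to 93.8 under evexomostat (log2 fold change -1.10, adjusted p 0.513 in edgeR). IGFBP5, which binds matrix, ran from 8.26 to 28.3 and 6.16 to 33.0 CPM (log2 fold change 0.05, adjusted p 0.980 in edgeR). IGFBP1, a liver product, had 0 to 5 counts per library.

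Of the paralogs of IGF2BP2, IGF2BP1 had a log2 fold change of -0.06 (adjusted p 0.923 in edgeR) and IGF2BP3 of -0.31 (adjusted p 0.800 in edgeR). LRP1, a receptor reported to bind IGFBP3, had -0.71 (adjusted p 0.480 in edgeR), with 57.1 to 532.7 CPM under vehicle and 117.9 to 241.1 under evexomostat.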
